A study of Mus musculus with 24 samples.

Results

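Accessible chromatin was measured around the 10 genes Tgfb1, Tgfbr1, Tgfbr2, Smad2, Smad3, Smad4, Smad6, Smad7, Ski and Skil, which encode a ligand, the receptors, the SMAD proteins and the SMAD corepressors of the TGF-β pathway. A consensus peak, an interval called open in the merged ATAC-seq libraries, was taken as a member when it overlapped the body of one of these genes or the 20 kb on either side of it, and was given to the nearest of the 10 genes, which left 217 of the 184158 peaks in mm10 coordinates. ATAC-seq counts the DNA fragments that a transposase cuts out of open chromatin, and the counts of 24 libraries were compared in 4 groups of 6 libraries. The cells were macrophages grown from bone marrow (BMDMs), either of C57BL/6J wildtype (WT) mice or of mice that lack the aryl hydrocarbon receptor (AhR) from the germline on (AhR-KO, the Ahr tm1Bra allele), grown from mice of both sexes. The study's methods list AhR-KO as a strain of its own and do not state that these WT mice were littermates. Strain background and genotype can therefore not be told apart here. In both genotypes the cells were either left unstimulated or given 97 EU/ml LPS, a bacterial cell wall product, for 24 h from day 6.

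All 4 groups were grown with 10 ng/ml GM-CSF and 2 ng/ml TGF-β to resemble alveolar macrophages, so that no group lacked the ligand of the pathway. One treatment text stands on all 24 libraries and ends with 10 min of 5 µM calcium ionophore A23187, but it also names LPS for libraries labelled unstimulated, so whether each of these libraries got the ionophore is not given in the sources used here. As a model, the knockout is a germline one, so that every cell of the donor mouse carried it, during development as well as in culture. Each group came from 6 animals in 1 experiment, and p-values measure the spread between these cultures.

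TGF-β binds a pair of receptor kinases: Tgfbr2 takes up the ligand and phosphorylates Tgfbr1, which in turn phosphorylates Smad2 and Smad3. These join Smad4 and enter the nucleus, where Ski and Skil hold SMAD-bound genes down until they are degraded, and Smad6 and Smad7 are inhibitory SMADs that feed back on the receptors. Together with GM-CSF, the pathway is required for alveolar macrophages to form and persist.

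The sequences of the peaks that carry the results below are printed here as the plus strand of mm10 (GRCm38.p6, from RefSeq), the central 300 bases of each peak or the whole peak where it is shorter. Capitals mark matches, on either strand, to the AhR core GCGTG, the SMAD box CAGAC or the AP-1 motif TGANTCA, none of which overlapped in these windows. The palindromic SMAD element GTCTAGAC, the κB motif GGANTTTCC and the PU.1 motif GAGGAAGT were searched too, without a match in the 7 windows. Other spellings of these motifs were not searched, so sites that differ in a letter are not excluded.
The first is the region upstream of Tgfbr2 with the smallest p of the gene for genotype, which held none of these letters.
Tgfbr2 upstream, chr9:116181921-116182220: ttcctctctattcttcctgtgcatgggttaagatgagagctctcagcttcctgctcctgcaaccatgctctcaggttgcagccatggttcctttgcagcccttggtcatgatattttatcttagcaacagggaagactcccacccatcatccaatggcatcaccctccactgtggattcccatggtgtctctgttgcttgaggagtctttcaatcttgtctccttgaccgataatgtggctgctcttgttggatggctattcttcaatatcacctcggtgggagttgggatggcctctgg
The second is the intronic Tgfbr2 region with the smallest p of the gene for LPS, with 1 SMAD box.
Tgfbr2 intronic, chr9:116160663-116160962: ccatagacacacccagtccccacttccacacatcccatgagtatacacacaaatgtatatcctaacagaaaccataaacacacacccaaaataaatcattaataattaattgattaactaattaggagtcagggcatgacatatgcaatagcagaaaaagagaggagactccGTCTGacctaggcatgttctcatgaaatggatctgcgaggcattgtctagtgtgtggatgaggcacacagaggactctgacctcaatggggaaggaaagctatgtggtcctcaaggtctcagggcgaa
The third is the intronic Tgfbr1 region that was higher in unstimulated AhR-KO, with 2 SMAD boxes.
Tgfbr1 intronic, chr4:47402099-47402398: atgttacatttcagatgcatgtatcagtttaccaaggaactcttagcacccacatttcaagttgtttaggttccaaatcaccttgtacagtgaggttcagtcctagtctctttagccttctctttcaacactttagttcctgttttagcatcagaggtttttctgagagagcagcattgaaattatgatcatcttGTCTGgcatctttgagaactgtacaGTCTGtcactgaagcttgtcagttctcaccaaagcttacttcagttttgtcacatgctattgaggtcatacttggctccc
The next pair are the weakly open Smad3 and Smad6 regions with the smallest p of their genes for genotype. The Smad3 region held 1 match each to the SMAD box, AP-1 and the AhR core, and the Smad6 region 1 SMAD box and 1 AP-1 match.
Smad3 intronic, chr9:63732735-63733030: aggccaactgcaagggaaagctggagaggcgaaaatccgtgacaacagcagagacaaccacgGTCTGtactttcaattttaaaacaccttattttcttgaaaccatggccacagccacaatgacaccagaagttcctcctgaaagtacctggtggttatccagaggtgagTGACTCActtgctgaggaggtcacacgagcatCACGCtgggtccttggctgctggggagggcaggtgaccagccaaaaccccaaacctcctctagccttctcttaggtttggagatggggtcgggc
Smad6 intronic, chr9:64015011-64015305: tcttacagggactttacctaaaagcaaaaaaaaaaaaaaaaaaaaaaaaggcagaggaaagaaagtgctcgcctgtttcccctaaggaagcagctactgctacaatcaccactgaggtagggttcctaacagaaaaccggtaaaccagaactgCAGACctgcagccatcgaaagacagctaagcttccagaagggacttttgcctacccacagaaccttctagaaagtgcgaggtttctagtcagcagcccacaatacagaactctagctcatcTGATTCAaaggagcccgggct
The last pair are the Smad3 and Skil regions with the smallest p of their genes for LPS, with 2 AhR cores and 1 AP-1 match in Smad3 and 1 SMAD box before Skil.
Smad3 LPS region, chr9:63706309-63706608: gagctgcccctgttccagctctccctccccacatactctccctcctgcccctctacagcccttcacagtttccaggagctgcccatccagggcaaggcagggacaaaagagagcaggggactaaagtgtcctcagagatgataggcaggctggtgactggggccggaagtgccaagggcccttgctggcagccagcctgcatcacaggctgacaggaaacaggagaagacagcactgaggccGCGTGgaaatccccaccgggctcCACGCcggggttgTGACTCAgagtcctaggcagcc
Skil upstream, chr3:31084231-31084530: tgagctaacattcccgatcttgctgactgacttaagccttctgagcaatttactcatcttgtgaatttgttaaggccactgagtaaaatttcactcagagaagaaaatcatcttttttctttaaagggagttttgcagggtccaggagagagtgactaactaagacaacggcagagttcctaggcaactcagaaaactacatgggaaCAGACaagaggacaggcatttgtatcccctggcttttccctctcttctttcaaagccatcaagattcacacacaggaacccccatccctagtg

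The 217 peaks were unevenly spread. Tgfbr2 (chromosome 9, 116084293 to 116175360) had 32, Smad2 (chromosome 18, 76241580 to 76310963) had 30, Tgfbr1 (chromosome 4, 47353222 to 47414931) had 28, Smad4 (chromosome 18, 73639009 to 73703780) had 23, Smad3 (chromosome 9, 63646767 to 63757994), Smad6 (chromosome 9, 63953076 to 64022059) and Ski (chromosome 4, 155154075 to 155222592) had 20 each, Skil (chromosome 3, 31095058 to 31122577) had 17, Smad7 (chromosome 18, 75367529 to 75395935) had 16 and Tgfb1 (chromosome 7, 25687002 to 25705077) had 11. Of all of them, 132 were intronic, 36 lay downstream, 29 upstream, 10 over an annotated start and 10 over another exon. The count filter kept 208 for testing. The 9 peaks that were too low to test were 4 of Smad2, 2 of Skil and 1 each of Smad4, Smad6 and Tgfb1. Around Tgfb1 the window was shared: 3 of its peaks covered the start of another gene (Tmem91, B9d2 or Ccdc97).

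Each library held 8.54 to 34.6 M fragments in peaks. WT unstimulated replicate 5 had the lowest total, and a tested member peak had a median count of 64 per library. Values are counts per M fragments in peaks (CPM) scaled by TMM factors of 0.976 to 1.04, and are given below as the lowest, median and highest of the 6 libraries of a group. The peak over the start of Ahr (chr12:35534069-35535364) held 20.2, 22.3 and 24.6 CPM in unstimulated WT and 11.5, 13.1 and 15.1 CPM in unstimulated AhR-KO, and 18.99, 19.9 and 22.2 CPM against 11.9, 15.1 and 16.8 CPM with LPS, so that the genotypes did not overlap. Whether it covers the disrupted part of the gene is not given in the sources used here. Start peaks were found for 6 of 7 macrophage marker genes, with summed levels of 114 to 125 CPM in unstimulated WT, 137 to 181 CPM in unstimulated AhR-KO, 111 to 125 CPM in WT with LPS and 111 to 150 CPM in AhR-KO with LPS. Of 15 markers of other cells, 5 had a start peak, with summed levels of 53.5 to 66.4, 56.1 to 62.1, 52.9 to 60.1 and 41.1 to 49.96 CPM in the same order, and the T cell, B cell and neutrophil markers had none. Within that sum the dendritic cell markers went apart: Flt3 was at 9.07 ± 2.12 CPM in unstimulated WT, 4.09 ± 0.607 CPM in unstimulated AhR-KO, 11.6 ± 3.02 CPM in WT with LPS and 4.73 ± 0.486 CPM in AhR-KO with LPS (mean ± SD, n = 6), and Zbtb46 at 22.4 ± 1.56, 26.6 ± 1.84, 18.8 ± 2.29 and 18.2 ± 2.07 CPM. The part of these shifts in the results below was not tested, and in bulk libraries a smaller share of cells with an open region and a less open region per cell cannot be told apart.

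The start peaks of the pathway's genes were open in every group and differed by less than 1.5-fold between genotypes. In unstimulated WT their levels per length were, in mean CPM per kb ± SD (n = 6), 42.05 ± 2.11 for Smad2, 32.2 ± 2.04 for Skil, 27.8 ± 1.61 for Smad7, 26.7 ± 1.34 for Tgfbr2, 23.2 ± 1.41 for Tgfbr1, 22.4 ± 1.38 for Tgfb1, 21.3 ± 1.89 for Smad6, 19.8 ± 1.29 for Smad4 and 9.099 ± 0.675 for Smad3. Smad2, the first in that order, and Smad3, the last, are the receptor-activated SMADs of the pathway. The neighbours from Smad7 to Tgfbr2, and from Tgfbr1 down to Smad4, lay within about 1 SD of each other. A differentially accessible region (DAR) is a peak with a fold change of at least 1.5 and an edgeR adjusted p of at most 0.05. By that rule, edgeR called 0 of the 10 start peaks for AhR-KO against WT, unstimulated or with LPS, against 6.22% and 7.0% of all 13469 tested start peaks. DESeq2 called 0 as well, and 2 and 7 of the 10 had an unadjusted p under 0.05. How many of all tested start peaks had such a p was not counted. In unstimulated cells 1 of these was higher and 1 lower in AhR-KO, and with LPS all 7 were lower. The median log2 fold change of the start peaks with LPS was -0.21, beside -0.03 over all tested start peaks. Only 1 of the 10 was above 0, beside 5665 of all 13469 tested start peaks. At 3 of the 10 the genotypes did not overlap, beside 1721 of the 13469. The largest of these genotype differences was at Smad3 with LPS, 9.45, 11.7 and 14.3 CPM in WT against 6.93, 8.78 and 10.2 CPM in AhR-KO (log2 fold change -0.38 ± 0.094 (SE), edgeR adjusted p = 0.00108), with overlapping groups.

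LPS changed a start peak past the threshold only at Tgfbr2, and there only in AhR-KO (10.4% of all tested start peaks were DARs for LPS in WT and 15.9% in AhR-KO). The Tgfbr2 start peak held 43.2, 44.9 and 49.1 CPM in unstimulated WT, 40.7, 45.9 and 48.02 CPM in unstimulated AhR-KO, 28.7, 30.6 and 35.2 CPM in WT with LPS and 24.4, 25.6 and 28.3 CPM in AhR-KO with LPS. The LPS libraries lay below all unstimulated libraries in both genotypes. The log2 fold change was -0.80 ± 0.057 (SE), edgeR adjusted p = 6.9e-15, in AhR-KO, and -0.53 ± 0.057 (SE), edgeR adjusted p = 3.36e-10, in WT, where it stayed below 1.5-fold. The difference between these effects was -0.27 ± 0.081 (SE), edgeR adjusted p = 0.0202. No start peak was a DAR for this difference in edgeR or DESeq2 (3.6% of all tested start peaks). It had an unadjusted p under 0.05 at 7 of 10 start peaks and was negative at all 7, and such p were not counted over all start peaks. The difference was above 0 at 1 of the 10, beside 5749 of all 13469 tested start peaks. Each library's own peak calls covered a start peak in 235 of 240 cases. The missing 5 were all at the second start peak of Smad7. Ski had no consensus peak over its annotated start. The nearest peak, 0.7 kb before it (chr4:155222868-155223740), held 57.9, 61.3 and 65.03 CPM in unstimulated WT, 67.1, 75.4 and 94.2 CPM in unstimulated AhR-KO, 41.8, 46.1 and 52.8 CPM in WT with LPS and 39.5, 44.9 and 52.4 CPM in AhR-KO with LPS, and LPS lowered it past the threshold in AhR-KO (log2 fold change -0.80 ± 0.068 (SE), edgeR adjusted p = 1.39e-12).

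**Figure D1:**
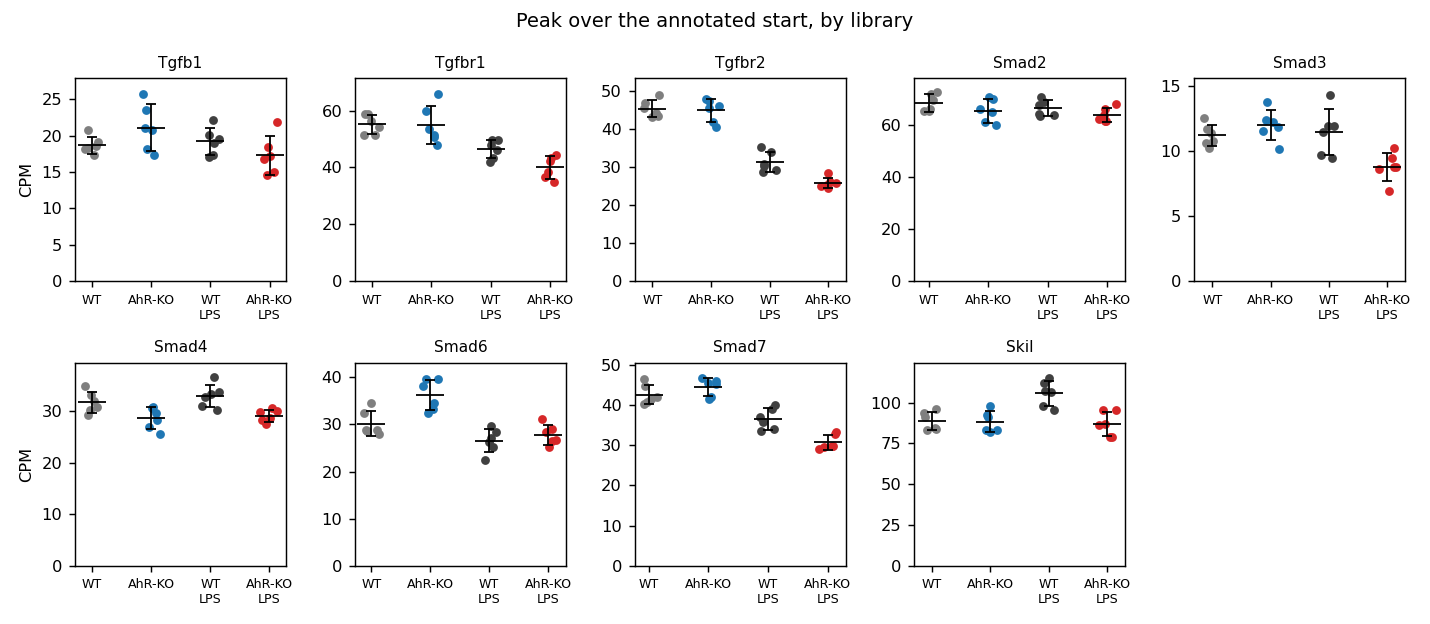
Level in CPM (vertical axes, linear, from 0) of the peak over the annotated start of 9 pathway genes in each library, with the mean and SD of the 6 libraries of each group (horizontal axis: unstimulated WT and AhR-KO, then WT and AhR-KO with LPS). The Tgfbr2 panel shows both LPS groups below all unstimulated libraries, between 24.4 and 35.2 CPM against 40.7 to 49.1 CPM.

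Away from the starts, 18.7% of 198 tested members were genotype DARs in unstimulated cells, against 24% of all tested peaks not over a start. With LPS the shares were 20.2% and 28.1%. Over all tested members, starts included, 15 of 208 were higher in unstimulated AhR-KO BMDMs (7.21%, against 9.95% of all 174193 tested peaks) and 22 were lower (10.6%, against 12.6%). With LPS, 13 were higher (6.25%, against 13.4%) and 27 lower (13%, against 13.1%). The median log2 fold change of the members was 0.06 in unstimulated cells and -0.05 with LPS, beside -0.02 and 0.02 over all tested peaks. With RLE in place of TMM size factors the split in unstimulated cells was 19 higher and 18 lower, while the split with LPS stayed at 13 and 27. The unstimulated and LPS comparisons use different libraries. They shared 19 DARs (51.4% of the 37 and 47.5% of the 40, beside 53.2% and 45.5% over all peaks), 14 lower and 5 higher in AhR-KO in both, and none went in opposite directions.

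**Figure D2:**
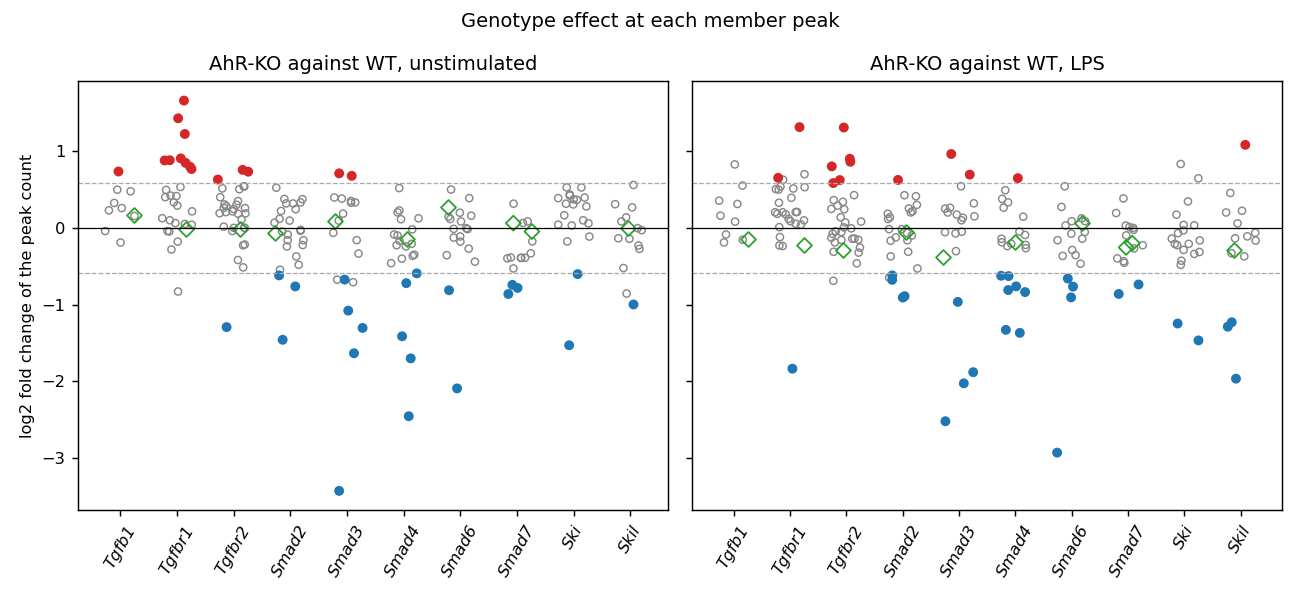
Log2 fold change of AhR-KO against WT (vertical axis) at each tested member peak, by gene (horizontal axis), in unstimulated cells (left) and with LPS (right). Filled red points are DARs higher and filled blue points DARs lower in AhR-KO, open grey points are other peaks, green diamonds are start peaks and dashed lines mark 1.5-fold. Tgfbr1 shows 9 red points and no blue one in unstimulated cells, and the SMAD genes mostly blue ones.

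At the receptor genes more peaks were higher than lower in AhR-KO. In unstimulated cells 12 of 60 tested receptor peaks were higher (20%, against 9.95% of all tested peaks) and 1 was lower (1.67%, against 12.6%), and with LPS 8 were higher (13.3%, against 13.4%) and 1 lower (1.67%, against 13.1%). At Tgfbr1, the kinase that phosphorylates the SMADs, 9 of 28 peaks were higher in unstimulated AhR-KO and 0 lower (1 lower at an unadjusted p under 0.05), and the counts were the same with RLE size factors and in DESeq2. Of these 9, 8 were intronic, from 23.3 to 56.9 kb after the gene start, and the other lay downstream of the gene at 64.6 kb. The region with the smallest p, 49 kb into the gene (chr4:47401983-47402513), held 1.34, 2.304 and 2.84 CPM in unstimulated WT, 3.52, 4.01 and 4.598 CPM in unstimulated AhR-KO, 3.101, 3.45 and 3.99 CPM in WT with LPS and 3.49, 4.07 and 4.56 CPM in AhR-KO with LPS. Unstimulated WT was the low group there, below every library of the other 3 groups. The genotype effect was 0.88 ± 0.13 (SE), edgeR adjusted p = 1.56e-06, on the log2 scale in unstimulated cells and 0.21 ± 0.12 (SE), edgeR adjusted p = 0.157, with LPS. A weaker intronic region at 23.3 kb (chr4:47376281-47376755) held 0.465, 0.772 and 0.9202 CPM in unstimulated WT and 1.405, 1.801 and 2.22 CPM in unstimulated AhR-KO, without overlap (log2 fold change 1.23 ± 0.19 (SE), edgeR adjusted p = 1.94e-06). With LPS 2 of the 9 stayed DARs, at 38.8 and 54.3 kb, and 1 upstream peak was lower. That upstream peak, at -16.8 kb (chr4:47336297-47336519, named after its values were seen), held 0.459, 0.994 and 1.89 CPM in WT with LPS and 0.158, 0.308 and 0.395 CPM in AhR-KO with LPS (log2 fold change -1.83 ± 0.31 (SE), edgeR adjusted p = 1.06e-05).

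At Tgfbr2, which binds the ligand, 3 peaks were higher and 1 lower in unstimulated AhR-KO, and 6 were higher and 0 lower with LPS (7 lower at an unadjusted p under 0.05). With RLE size factors the unstimulated count was 5 higher and 1 lower. The lower one had the smallest p of the gene for genotype. It lay 6.7 kb before the gene start (chr9:116181699-116182442) and held 9.54, 12.5 and 13.1 CPM in unstimulated WT, 4.11, 4.91 and 5.51 CPM in unstimulated AhR-KO, 3.98, 4.49 and 5.25 CPM in WT with LPS and 3.34, 4.24 and 4.38 CPM in AhR-KO with LPS. Here unstimulated WT was the high group, with every library above all others, and in the libraries' own peak calls the region was open in 6 of 6 unstimulated WT libraries, 0 of 6 unstimulated AhR-KO libraries and 2 of 6 in each LPS group. The log2 genotype effect was -1.29 ± 0.10 (SE), edgeR adjusted p = 5.78e-13, in unstimulated cells and -0.15 ± 0.10 (SE), edgeR adjusted p = 0.221, with LPS. The 3 regions named for the smallest p among those higher in AhR-KO with LPS lay in the far part of the gene, at 49.9 kb, 83.9 kb and 88.1 kb. The intronic region at 49.9 kb (chr9:116125117-116125839) held 0.785, 0.953 and 1.19 CPM in unstimulated WT, 1.098, 1.73 and 2.08 CPM in unstimulated AhR-KO, 1.77, 3.52 and 3.78 CPM in WT with LPS and 6.56, 7.68 and 8.98 CPM in AhR-KO with LPS, with a log2 genotype effect of 0.76 ± 0.21 (SE), edgeR adjusted p = 0.00377, before and 1.31 ± 0.14 (SE), edgeR adjusted p = 3.05e-09, after LPS. The exonic region at 88.1 kb (chr9:116086450-116088132) held 11.2, 15.6 and 18.1 CPM in WT with LPS and 22.9, 28.2 and 34.6 CPM in AhR-KO with LPS (log2 fold change 0.90 ± 0.10 (SE), edgeR adjusted p = 5.59e-09), and the intronic region at 83.9 kb (chr9:116091107-116091896) 3.596, 4.52 and 5.799 and 6.601, 7.797 and 9.38 CPM (0.80 ± 0.11 (SE), edgeR adjusted p = 3.43e-07). All 3 pairs of groups with LPS were without overlap. Near the start, the region at 8.7 kb (chr9:116166191-116167139) was higher in unstimulated AhR-KO, 15.1, 15.9 and 17.7 CPM against 7.53, 10.6 and 12.4 CPM in WT (log2 fold change 0.63 ± 0.10 (SE), edgeR adjusted p = 3.5e-06), but at 0.56 stayed under 1.5-fold without WT unstimulated replicate 1.

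**Figure D3:**
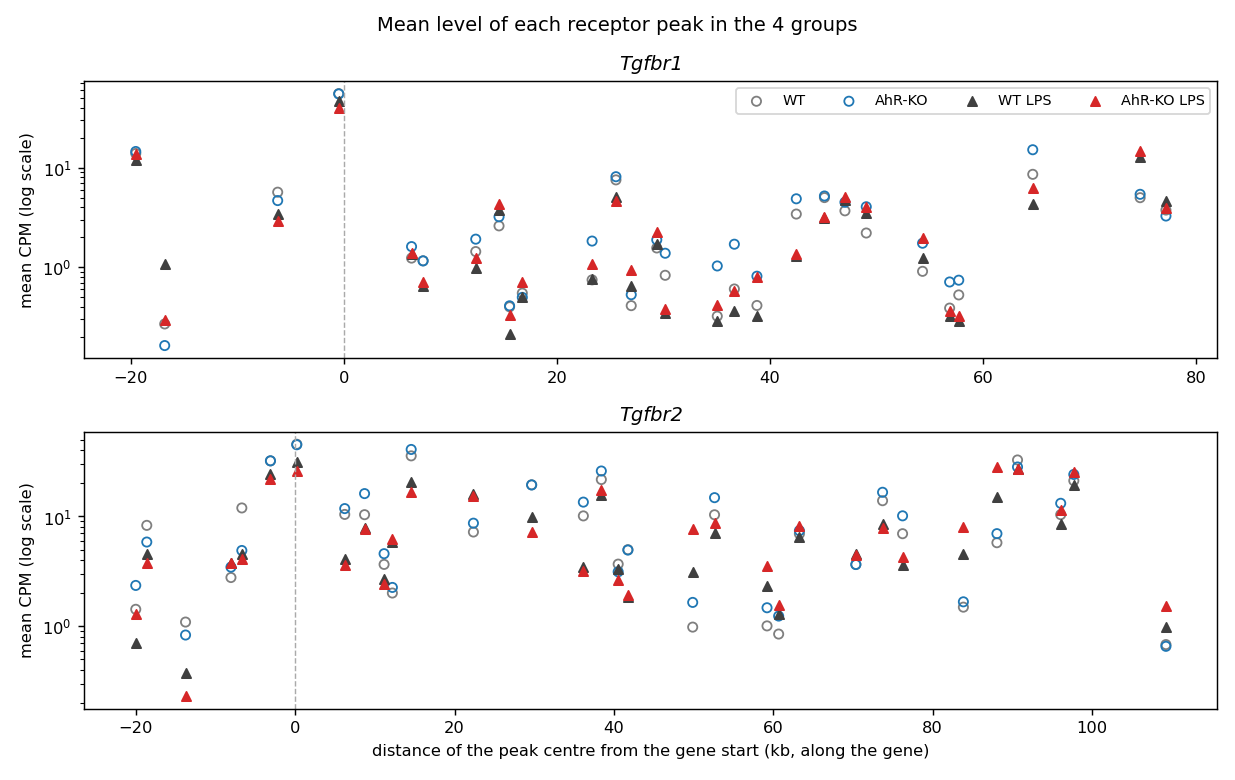
Mean CPM of the 6 libraries of each group (vertical axis, log scale) at each tested peak of Tgfbr1 (upper) and Tgfbr2 (lower), against the distance of the peak centre from the gene start along the gene in kb (horizontal axis, dashed line at the start). Open circles are unstimulated and filled triangles LPS groups. At Tgfbr2 the peak 6.7 kb before the start has the unstimulated WT circle above the other 3 groups, and the LPS triangles lie above the circles at 49.9, 83.9 and 88.1 kb.

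At the receptor-activated SMADs most genotype DARs were lower in AhR-KO. Of 46 tested peaks of Smad2 and Smad3, 2 were higher and 8 lower in unstimulated cells (4.35% and 17.4%, against 9.95% and 12.6% of all tested peaks). With RLE size factors and in DESeq2, Smad2 had 1 higher and 2 lower in unstimulated cells, in place of 0 and 3. With LPS, 3 of the 46 were higher and 8 lower (6.52% and 17.4%, against 13.4% and 13.1%). The largest was in Smad3, 25.1 kb into the gene (chr9:63732735-63733030), which held 1.104, 1.51 and 2.51 CPM in unstimulated WT, 0.0912, 0.131 and 0.216 CPM in unstimulated AhR-KO, 0.746, 2.14 and 2.996 CPM in WT with LPS and 0.179, 0.329 and 0.497 CPM in AhR-KO with LPS. In unstimulated cells this region was close to 0 in AhR-KO, with 2 to 5 fragments per library against 10 to 46 in WT, and with LPS 5 to 12 against 26 to 90. It was called open in 3 of 6 unstimulated and 4 of 6 LPS-treated WT libraries and in no AhR-KO library. The log2 genotype effect was -3.43 ± 0.39 (SE), edgeR adjusted p = 1.48e-08, and -2.52 ± 0.30 (SE), edgeR adjusted p = 4.32e-08, with LPS, and the genotypes did not overlap in either condition. A more open Smad3 region at 36.3 kb (chr9:63721448-63721975) held 5.58, 7.53 and 11.3 CPM in unstimulated WT, 3.13, 3.76 and 4.52 CPM in unstimulated AhR-KO, 5.66, 5.87 and 7.42 CPM in WT with LPS and 4.61, 4.798 and 6.601 CPM in AhR-KO with LPS, lower in AhR-KO in unstimulated cells (-1.08 ± 0.13 (SE), edgeR adjusted p = 3.93e-08) and by less than 1.5-fold with LPS (-0.30 ± 0.13 (SE), edgeR adjusted p = 0.0485). At Smad2 the smallest p belonged to a region downstream of the gene (chr18:76324877-76325471), with 1.98, 2.37 and 3.37 CPM in unstimulated WT and 0.593, 0.979 and 1.405 CPM in unstimulated AhR-KO (log2 fold change -1.46 ± 0.20 (SE), edgeR adjusted p = 3.03e-07). With LPS it was -0.89 ± 0.21 (SE), edgeR adjusted p = 0.000662. The 1 Smad2 peak higher in AhR-KO with LPS (exonic, chr18:76286629-76288017, named after its values were seen) reached a log2 fold change of 0.63.

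Smad4, the partner that the receptor SMADs share, had 5 of 22 tested peaks lower and 0 higher in unstimulated AhR-KO (1 higher at an unadjusted p under 0.05). That was 22.7% lower, against 12.6% of all tested peaks. With LPS, 7 were lower and 1 higher (31.8% and 4.55%, against 13.1% and 13.4%). DESeq2 and RLE size factors gave 4 lower in unstimulated cells and the same 7 and 1 in number with LPS. Its leading region lay downstream of the gene, 73.3 kb from the start (chr18:73630055-73630997), and held 5.23, 9.57 and 12.9 CPM in unstimulated WT, 1.36, 1.71 and 2.43 CPM in unstimulated AhR-KO, 2.53, 3.79 and 4.73 CPM in WT with LPS and 1.22, 1.44 and 1.78 CPM in AhR-KO with LPS. Unstimulated WT was again the high group and did not overlap any other. The log2 genotype effect was -2.45 ± 0.17 (SE), edgeR adjusted p = 1.62e-13, and -1.37 ± 0.17 (SE), edgeR adjusted p = 6.91e-08, with LPS. An intronic region 58.8 kb into the gene (chr18:73644651-73645213) had the same order, 3.96, 7.304 and 10.2 CPM in unstimulated WT against 1.46, 2.14 and 2.95 CPM in unstimulated AhR-KO (-1.7 ± 0.17 (SE), edgeR adjusted p = 3.3e-10), and 2.24, 2.75 and 3.09 against 1.38, 1.45 and 1.97 CPM with LPS (-0.81 ± 0.18 (SE), edgeR adjusted p = 0.000289). A further region, 9.6 kb into the gene (chr18:73693285-73695087), differed with LPS. It held 6.17, 7.41 and 8.39 CPM in unstimulated WT, 5.005, 5.49 and 6.52 CPM in unstimulated AhR-KO, 7.32, 13.3 and 16.8 CPM in WT with LPS and 4.02, 5.07 and 6.09 CPM in AhR-KO with LPS. WT with LPS had the highest median and overlapped unstimulated WT alone. The log2 genotype effect there was -1.33 ± 0.15 (SE), edgeR adjusted p = 3.33e-08, with LPS and -0.36 ± 0.16 (SE), edgeR adjusted p = 0.0763, without. The 1 Smad4 peak higher in AhR-KO with LPS (chr18:73647747-73648517, named after its values were seen) had a log2 fold change of 0.65.

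The inhibitory SMADs had 5 DARs lower and 0 higher among 35 tested peaks in unstimulated AhR-KO (14.3% lower, against 12.6% of all tested peaks), and 6 lower and 0 higher with LPS (17.1% lower, against 13.1%). With RLE size factors and in DESeq2, Smad6 had 1 lower peak in unstimulated cells, in place of 2. At an unadjusted p under 0.05, 2 Smad6 peaks were higher in unstimulated cells and 1 with LPS. Smad6 carried the clearest, an intronic region 6.9 kb from the start (chr9:64015011-64015305) with 0.233, 0.821 and 1.01 CPM in unstimulated WT, 0.108, 0.147 and 0.304 CPM in unstimulated AhR-KO, 0.689, 1.67 and 2.77 CPM in WT with LPS and 0.0811, 0.225 and 0.366 CPM in AhR-KO with LPS. As at Smad3, AhR-KO was close to 0, with 2 to 7 fragments per unstimulated library against 2 to 22 in WT and 2 to 9 against 24 to 85 with LPS. All 6 WT libraries with LPS called it open, and no AhR-KO library did. The log2 genotype effect was -2.93 ± 0.31 (SE), edgeR adjusted p = 3.43e-09, with LPS and -2.09 ± 0.39 (SE), edgeR adjusted p = 5.71e-05, without, where WT unstimulated replicate 5 overlapped the AhR-KO libraries. A stronger Smad6 region at 32.6 kb (chr9:63988887-63990102) held 7.63, 9.05 and 9.72 CPM in unstimulated WT, 7.65, 9.51 and 10.8 CPM in unstimulated AhR-KO, 7.17, 8.49 and 10.2 CPM in WT with LPS and 4.61, 5.48 and 6.42 CPM in AhR-KO with LPS, and was lower in AhR-KO with LPS alone (-0.66 ± 0.10 (SE), edgeR adjusted p = 1.31e-06). At Smad7 the upstream region with the smallest p (chr18:75353451-75354183) held 4.75, 7.09 and 8.12 CPM in unstimulated WT and 3.12, 3.81 and 4.26 CPM in unstimulated AhR-KO (-0.86 ± 0.12 (SE), edgeR adjusted p = 3.03e-07), and the difference with LPS stayed under 1.5-fold (-0.40 ± 0.10 (SE), edgeR adjusted p = 0.0012).

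Of 35 tested peaks of the corepressors, 3 were lower and 0 higher in unstimulated AhR-KO by the TMM fit (8.57% lower, against 12.6% of all tested peaks). Under RLE, 1 of Ski's 2 lower calls was lost and 1 was gained as higher. In the TMM fit with LPS, 5 of the 35 were lower and 1 higher (14.3% and 2.86%, against 13.1% and 13.4%). At Ski the lower peaks were a pair upstream of the gene. The one with the smallest p, at -16.1 kb (chr4:155238547-155238786), held 2.56, 3.87 and 4.56 CPM in unstimulated WT, 0.9196, 1.29 and 1.76 CPM in unstimulated AhR-KO, 0.976, 1.19 and 1.498 CPM in WT with LPS and 0.365, 0.442 and 0.502 CPM in AhR-KO with LPS. The log2 genotype effect was -1.53 ± 0.16 (SE), edgeR adjusted p = 6.31e-10, and -1.47 ± 0.20 (SE), edgeR adjusted p = 1.52e-07, with LPS. Its neighbour at -14.7 kb (chr4:155237149-155237397, named after its values were seen) was at -0.60 and -1.24. At Skil an intronic region 9.3 kb into the gene (chr3:31104129-31104517) held 1.83, 2.13 and 2.48 CPM in unstimulated WT, 1.695, 1.89 and 2.23 CPM in unstimulated AhR-KO, 3.07, 4.47 and 7.56 CPM in WT with LPS and 1.54, 1.96 and 2.56 CPM in AhR-KO with LPS, which put WT with LPS apart from the other 3 groups. The genotype effect was -1.23 ± 0.17 (SE), edgeR adjusted p = 1.99e-07, with LPS and -0.14 ± 0.19 (SE), edgeR adjusted p = 0.603, without. A downstream region (chr3:31133482-31135648, named after its values were seen) was lower in both conditions, at -0.99 and -1.29, and 1 upstream region (chr3:31086232-31086395, likewise) was higher with LPS, at 1.46, 1.84 and 2.31 CPM in WT and 3.705, 3.801 and 4.52 CPM in AhR-KO (1.09 ± 0.17 (SE), edgeR adjusted p = 2.18e-06). The ligand gene Tgfb1 had 1 DAR, an intronic peak (chr7:25695011-25696237, named after its values were seen) higher in unstimulated AhR-KO (log2 fold change 0.74 ± 0.21 (SE), edgeR adjusted p = 0.0052). Its smallest p belonged to a strong downstream peak (chr7:25705691-25708250) with 65.1, 70.2 and 76.7 CPM in unstimulated WT and 80.9, 93.5 and 122 CPM in unstimulated AhR-KO, a difference of 0.50 that stayed under 1.5-fold although the groups did not overlap.

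**Figure D4:**
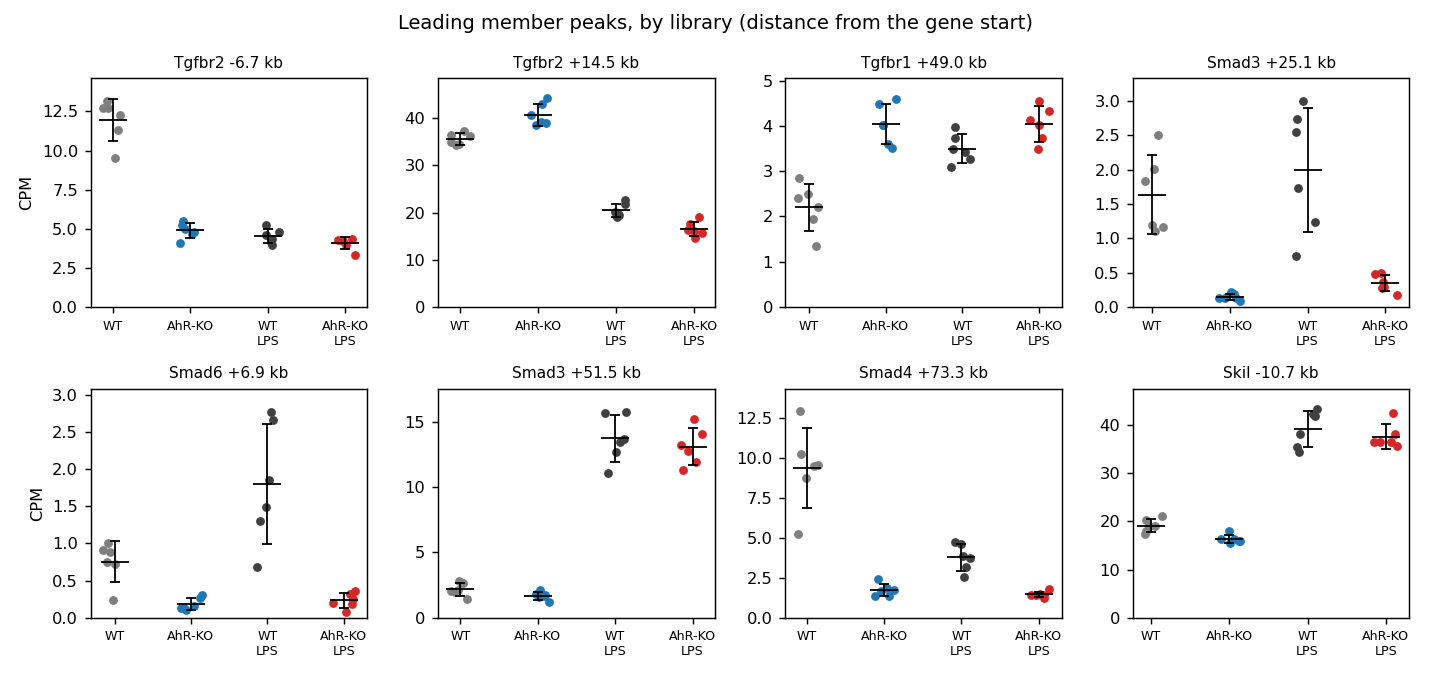
Level in CPM (vertical axes, linear, from 0) of 8 leading peaks in each library, with the mean and SD of the 6 libraries of each group. Panel titles give the gene and the distance from its start. The Smad3 peak at 25.1 kb stays at or under 0.497 CPM in all AhR-KO libraries, and the Smad3 peak at 51.5 kb rises from at most 2.79 CPM to at least 11.1 CPM with LPS in both genotypes.

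Whether the genotype effect differed between conditions was tested by the interaction, the log2 genotype effect with LPS minus that without. It passed the threshold at 8 members with a positive and 11 with a negative difference (3.85% and 5.29%, against 5.83% and 4.58% of all tested peaks), or 6 and 13 with RLE size factors. At the upstream Tgfbr2 region the difference was 1.14 ± 0.14 (SE), edgeR adjusted p = 6.36e-07, with the WT median at 12.5 CPM without and 4.49 CPM with LPS and the AhR-KO median at 4.91 and 4.24 CPM. At 3 further regions AhR-KO was lower in both conditions and the difference was smaller with LPS, where it kept an adjusted p under 0.05. These were the downstream Smad4 region (1.09 ± 0.25 (SE), edgeR adjusted p = 0.00243), still at -1.37 with LPS, the Smad4 region at 58.8 kb (0.89 ± 0.24 (SE), edgeR adjusted p = 0.0113), still at -0.81, and the Smad3 region at 36.3 kb (0.78 ± 0.18 (SE), edgeR adjusted p = 0.00351), at -0.30. At that Smad3 region the WT median was lower and the AhR-KO median higher with LPS than without. In the opposite sense, the genotype difference appeared with LPS at Skil (9.3 kb, -1.09 ± 0.25 (SE), edgeR adjusted p = 0.00322), Smad4 (9.6 kb, -0.97 ± 0.22 (SE), edgeR adjusted p = 0.00348) and Smad6 (32.6 kb, -0.74 ± 0.14 (SE), edgeR adjusted p = 0.000395). At Ski the sign turned: the intronic region at 5.8 kb (chr4:155215747-155217810) held 40.6, 46.04 and 48.5 CPM in unstimulated WT, 53.01, 59.4 and 68.4 CPM in unstimulated AhR-KO, 24.6, 31.1 and 37.1 CPM in WT with LPS and 22.2, 24.6 and 27.5 CPM in AhR-KO with LPS, a genotype effect of 0.40 without and -0.34 with LPS, each under 1.5-fold, and a difference of -0.73 ± 0.11 (SE), edgeR adjusted p = 1.74e-05. The downstream Ski region (chr4:155150315-155152183) went from 0.38 to -0.31, a difference of -0.69 ± 0.13 (SE), edgeR adjusted p = 0.000482. Several interactions near the threshold depended on the fit. The intronic Tgfbr1 region, at -0.68 ± 0.18 (SE), edgeR adjusted p = 0.00835, fell to -0.58 and under the threshold without WT unstimulated replicate 6, and the intronic Smad4 region at 60.6 kb, at 0.73 ± 0.20 (SE), edgeR adjusted p = 0.0105, to 0.56 without the same library. The interactions at the far Tgfbr2 regions (0.60 at both) were lost with RLE size factors, in DESeq2 and without any of several single libraries.

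LPS changed 48.1% of the members in WT and 55.3% in AhR-KO. In WT 59 of 208 were higher and 41 lower with LPS (28.4% and 19.7%, against 25.4% and 21.6% of all tested peaks), and in AhR-KO 53 were higher and 62 lower (25.5% and 29.8%, against 27.3% and 21.5%). The genotypes shared 84 of these DARs with the same sign, 49 higher and 35 lower, and none with opposite signs. Of those called in 1 genotype only, 27 were lower and 4 higher in AhR-KO, and 6 lower and 10 higher in WT, which is a count at a threshold and not a test of the difference, given by the interaction above. The genes split by direction. At Smad3 13 of 20 tested peaks rose in each genotype and 1 fell, and at Skil 11 of 15 rose and 0 fell in WT (2 lower at an unadjusted p under 0.05) and 10 rose and 1 fell in AhR-KO. At Ski 1 rose and 8 of 20 fell in WT, and 1 rose and 18 fell in AhR-KO. Tgfbr1 and Tgfbr2 lost more peaks than they gained, with 4 up and 8 down at Tgfbr1 and 7 up and 11 down at Tgfbr2 in WT, and 2 up and 13 down and 7 up and 15 down in AhR-KO. Smad4 gained 7 in each genotype and lost 2 in WT and 0 in AhR-KO (2 lower there at an unadjusted p under 0.05), and Smad7 gained 5 and lost 2 in each. Smad2 and Smad6 were mixed, and at Tgfb1 1 peak rose in each genotype.

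**Figure D5:**
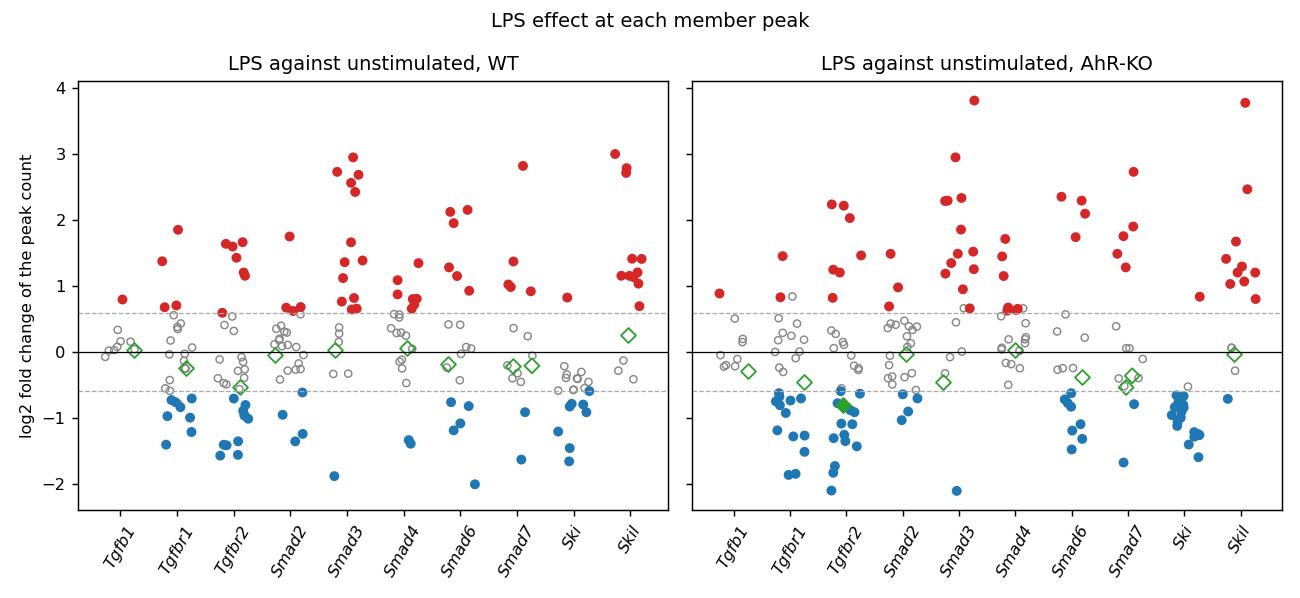
Log2 fold change of LPS against unstimulated (vertical axis) at each tested member peak, by gene (horizontal axis), in WT (left) and AhR-KO (right). Filled red and blue points are DARs higher and lower with LPS, open grey points other peaks, green diamonds start peaks (filled where a DAR) and dashed lines 1.5-fold. Smad3 and Skil hold mostly red points and Ski mostly blue ones, 8 in WT and 18 in AhR-KO.

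The Smad3 gains were all intronic, between 10.1 and 83.2 kb from the gene start. The region at 51.5 kb (chr9:63705983-63706934) held 1.44, 2.105 and 2.79 CPM in unstimulated WT, 1.19, 1.72 and 2.12 CPM in unstimulated AhR-KO, 11.1, 13.6 and 15.8 CPM in WT with LPS and 11.3, 13.01 and 15.2 CPM in AhR-KO with LPS. It rose by 2.68 ± 0.13 (SE), edgeR adjusted p = 8.91e-20, on the log2 scale in WT and by 2.95 ± 0.13 (SE), edgeR adjusted p = 3.15e-21, in AhR-KO. A second region at 83.2 kb (chr9:63674545-63675051) rose by 2.56 ± 0.12 (SE), edgeR adjusted p = 2.02e-19, and 2.33 ± 0.12 (SE), edgeR adjusted p = 2.12e-19. The weak Smad3 region at 25.1 kb was at 0.28 ± 0.25 (SE), edgeR adjusted p = 0.338, in WT and at 1.19 ± 0.49 (SE), edgeR adjusted p = 0.0317, in AhR-KO, with an interaction of 0.91 ± 0.55 (SE), edgeR adjusted p = 0.277. The call in AhR-KO was lost without any one of several libraries, with adjusted p of 0.0538 to 0.0697 in those fits. The one Smad3 loss lay downstream, inside the body of Aagab (chr9:63642252-63642631, named after its values were seen), at -1.88 in WT and -2.1 in AhR-KO. Before Skil, the region at -10.7 kb (chr3:31083666-31085095) held 17.3, 18.98 and 21 CPM in unstimulated WT, 15.5, 16.1 and 17.9 CPM in unstimulated AhR-KO, 34.3, 39.9 and 43.3 CPM in WT with LPS and 35.6, 36.4 and 42.5 CPM in AhR-KO with LPS, a gain of 1.04 ± 0.064 (SE), edgeR adjusted p = 2.43e-16, and 1.2 ± 0.064 (SE), edgeR adjusted p = 1.77e-18, with all LPS libraries above all unstimulated ones. At Smad7 an exonic region (chr18:75375474-75375896) rose from 0.693, 0.895 and 1.09 CPM to 4.61, 5.68 and 9.53 CPM in WT and from 0.638, 0.961 and 1.19 to 4.38, 6.09 and 8.16 CPM in AhR-KO, and at Smad6 a region 10 kb before the start (chr9:64031588-64032588) rose by 2.12 and 2.09. These were gains of similar size in the genotypes (interaction -0.089 ± 0.29 and -0.027 ± 0.21).

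Among the losses, the Tgfbr2 region 14.5 kb into the gene (chr9:116159974-116161651) held 34.3, 35.6 and 37.2 CPM in unstimulated WT, 38.5, 39.9 and 44.2 CPM in unstimulated AhR-KO, 19.1, 19.9 and 22.6 CPM in WT with LPS and 14.7, 16.2 and 18.96 CPM in AhR-KO with LPS. All LPS libraries lay below all unstimulated ones, with log2 fold changes of -0.80 ± 0.059 (SE), edgeR adjusted p = 2.98e-14, in WT and -1.3 ± 0.06 (SE), edgeR adjusted p = 2.41e-20, in AhR-KO. The interaction there was -0.50 ± 0.084, edgeR adjusted p = 8.63e-05, below 1.5-fold. At 36.2 kb (chr9:116138599-116139806) the loss was -1.57 ± 0.11 (SE), edgeR adjusted p = 2.04e-15, and -2.09 ± 0.11 (SE), edgeR adjusted p = 3.11e-19, and 6 of 6 libraries called the region open in each unstimulated group and 0 of 6 in each LPS group. At Tgfbr2 the losses in WT ran from 20 kb before to 76.2 kb after the gene start, with their median at 14.5 kb, and the gains from 12.2 to 88.1 kb, with their median at 59.2 kb. The Tgfbr1 region with the smallest p for LPS (chr4:47395511-47395853) was lower with LPS, at -1.4 ± 0.16 (SE), edgeR adjusted p = 9.36e-10, and -1.84 ± 0.15 (SE), edgeR adjusted p = 3.5e-13. At Ski the region 35 kb into the gene (chr4:155187001-155188157) held 22.6, 24.7 and 27.02 CPM in unstimulated WT, 24.9, 29.1 and 36.4 CPM in unstimulated AhR-KO, 11.4, 12.7 and 16.02 CPM in WT with LPS and 10.6, 11.6 and 12.1 CPM in AhR-KO with LPS, with log2 fold changes of -0.91 ± 0.086 (SE), edgeR adjusted p = 1.71e-11, in WT and -1.4 ± 0.086 (SE), edgeR adjusted p = 1.29e-16, in AhR-KO. The lone Ski gain, intronic at 24.6 kb (chr4:155197767-155198157, named after its values were seen), was 0.83 in WT and 0.84 in AhR-KO. At Smad2 the region with the smallest p (chr18:76227120-76228458, upstream) was at -1.24 and -1.03. The one Tgfb1 DAR for LPS lay 24.5 kb from its start inside the body of Ccdc97 (chr7:25710796-25712268), and rose by 0.81 and 0.90.

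The other genes of the pathway gave a wider frame. The 38 genes listed for it, from further ligands, latent TGF-β proteins and coreceptors to SMADs of the BMP branch, SMAD regulators and target genes, had 657 peaks, of which 626 were tested. In unstimulated cells 61 were higher and 61 lower in AhR-KO (9.74% each, against 9.95% and 12.6% of all tested peaks), and with LPS 70 and 55 (11.2% and 8.79%, against 13.4% and 13.1%). LPS raised 188 and lowered 116 in WT (30% and 18.5%, against 25.4% and 21.6%) and raised 196 and lowered 122 in AhR-KO (31.3% and 19.5%, against 27.3% and 21.5%). For the interaction, 37 were positive and 27 negative (5.91% and 4.31%, against 5.83% and 4.58%), or 26 and 33 with RLE size factors. Of the peaks higher in unstimulated AhR-KO, the one with the smallest p lay upstream of Smurf1, a ubiquitin ligase of the receptors and SMADs (chr5:144971491-144973440), at 10.5 ± 0.9203 CPM in WT and 19.1 ± 1.398 CPM in AhR-KO (mean ± SD, n = 6; log2 fold change 0.86 ± 0.084 (SE), edgeR adjusted p = 2.52e-10), and 0.90 with LPS. An intronic region of Acvr1, an activin and BMP type I receptor (chr2:58490929-58491831), was higher in AhR-KO in both conditions, at 1.27 and 1.2. Lower in AhR-KO were a region near the ligand gene Tgfb3, inside the body of Ttll5 (chr12:86042340-86042934), at -4.67 ± 0.33 (SE), edgeR adjusted p = 1.33e-12, and -3.48 with LPS, and an exonic region of the target gene Tgfbi (chr13:56629287-56629659), at -2.19 and -2.15. The first lies on chromosome 12, which also carries Ahr. Downstream of Inhba, which encodes the activin A subunit, a region (chr13:16031761-16033892) held 4.23 ± 0.556 CPM in unstimulated WT, 8.04 ± 0.614 CPM in unstimulated AhR-KO, 31.8 ± 3.802 CPM in WT with LPS and 67.9 ± 3.24 CPM in AhR-KO with LPS. It rose with LPS in both genotypes (2.89 and 3.08) and was higher in AhR-KO in both conditions (0.91 and 1.09 ± 0.066 (SE), edgeR adjusted p = 6.2e-15). By gene, chosen after the counts were seen, 10 of 17 tested peaks of Bmpr1a, a BMP type I receptor, were lower in unstimulated AhR-KO and 9 with LPS, and 7 and 9 of 15 peaks of Inhba were higher. An intronic region of Ltbp1, a protein that stores latent TGF-β (chr17:75252526-75253043), was lower in AhR-KO with LPS (-2.73 ± 0.27 (SE), edgeR adjusted p = 1.12e-09).

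The letters of the members were much like those of all peaks. They were counted in windows of 300 bases around each peak centre, which reach past the ends of shorter peaks. The AhR core was found in 17.3% of the tested members and 16.3% of all tested peaks, the SMAD box in 51.9% and 52.4% and AP-1 in 13.5% and 18.1%. PU.1 (GAGGAAGT) was found in 6.25% and 7.49%, κB (GGANTTTCC) in 1.92% and 1.81% and the palindromic SMAD element (GTCTAGAC) in 1 member, 0.481%, and 0.298%. Both strands were searched, and the palindromic element holds no SMAD box as spelled here. Among the genotype DARs of unstimulated cells the AhR core was found in 0 of 15 higher and 3 of 22 lower members, and the SMAD box in 4 and 15. With LPS the counts were 3 of 13 and 6 of 27 for the AhR core, and 6 and 19 for the SMAD box. The AP-1 motif was found in 16 of the 59 members that LPS raised in WT (27.1%) and 0 of the 41 that it lowered, and in AhR-KO in 15 of 53 (28.3%) and 3 of 62 (4.84%). These are counts of letters in windows and were not tested. The letters were not counted among the DARs of all other genes, so whether such splits are particular to the members is not known.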

How the data were processed

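ATAC-seq libraries of 24 BMDM cultures, 6 per group, were compared. Per the file headers and the study's methods, the authors aligned reads to mm10 with the nf-core pipeline, called peaks per library with MACS2, merged them into consensus peaks and deposited raw fragment counts per peak from featureCounts 2.0.1 (a pair counted from 0.2 of its length in the peak), and the deposited peak lists give −log10 q values.

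Members were found with GENCODE gene bodies. Counts were fitted with edgeR 4.0.16 (R 4.3.3): filterByExpr, TMM size factors, robust quasi-likelihood test over all 24 libraries with group as the only factor, and Benjamini-Hochberg adjustment over 174193 tested peaks. All 24 count columns matched 1 library each and 0 belonged to none. Library totals of 8.54 to 34.6 M fragments set the precision, and fragments without molecular identifiers are not independent molecules. The labels give no batch. The script was tested on simulated counts.

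Members and lists were chosen with earlier results of these data known, so no list was tested as a set. Named peaks are the start peaks, the 3 DARs per direction and comparison with the smallest p, and each gene's smallest p for genotype and LPS, and for the other pathway genes the 2 per direction. Alternatives were RLE size factors, DESeq2 1.42.0, no count filter, a replicate block, other fold thresholds (2 or none), windows of 5 and 50 kb, leaving out peaks over other genes' starts, and leaving out each library. In the closest of 60 pairs of libraries within a group, counts differed by 1.26 times the sampling noise (chi-square per peak), so all were kept as separate samples.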

Additional observations from a re-analysis of the deposited data

Results flagged for a closer look

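In 6 of 176 groups of 6 libraries at the named peaks (3.41%) the highest or lowest library stood far from the rest, where chance alone flags about 1 group in 20. At the Skil peak starting at 31083666, replicate 5 of unstimulated AhR-KO held 17.92 CPM, above the other 5 libraries at 15.54 to 16.29 CPM. At the Skil peak starting at 31083666, replicate 3 of AhR-KO with LPS held 42.48 CPM, above the other 5 libraries at 35.62 to 38.1 CPM. At the Smad3 peak starting at 63721448, replicate 1 of AhR-KO with LPS held 6.601 CPM, above the other 5 libraries at 4.605 to 5.129 CPM. At the Smad6 peak starting at 64015011, replicate 5 of unstimulated WT held 0.2326 CPM, below the other 5 libraries at 0.7264 to 1.012 CPM. At the Smad7 peak starting at 75368884, replicate 5 of AhR-KO with LPS held 12.74 CPM, above the other 5 libraries at 10.53 to 11.11 CPM. At the Tgfbr2 peak starting at 116091107, replicate 5 of unstimulated WT held 1.861 CPM, above the other 5 libraries at 1.351 to 1.519 CPM. Replicate 5 of unstimulated WT, which appears at Smad6 and Tgfbr2, was also the library with the lowest total.

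The genotype effect differed between unstimulated and LPS-treated cells at 14 named peaks, by the interaction test of edgeR (effect with LPS minus effect without, log2 scale, 6 libraries per group). At Ski the peak starting at 155150315 went from 0.38 to -0.31, a difference of -0.688 (adjusted p = 0.000482). Another, at 155215747, went from 0.40 to -0.34, a difference of -0.735 (adjusted p = 1.74e-05). At Skil the peak starting at 31104129 went from -0.14 to -1.23, a difference of -1.09 (adjusted p = 0.00322). At Smad3 the peak starting at 63721448 went from -1.08 to -0.30, a difference of 0.776 (adjusted p = 0.00351). At Smad4 the peak starting at 73630055 went from -2.45 to -1.37, a difference of 1.09 (adjusted p = 0.00243). Another, at 73642987, went from -0.35 to 0.38, a difference of 0.728 (adjusted p = 0.0105). Another, at 73644651, went from -1.70 to -0.81, a difference of 0.891 (adjusted p = 0.0113). Another, at 73693285, went from -0.36 to -1.33, a difference of -0.966 (adjusted p = 0.00348). At Smad6 the peak starting at 63988887 went from 0.086 to -0.66, a difference of -0.744 (adjusted p = 0.000395). At Tgfbr1 the peak starting at 47401983 went from 0.88 to 0.21, a difference of -0.676 (adjusted p = 0.00835). At Tgfbr2 the peak starting at 116086450 went from 0.30 to 0.90, a difference of 0.601 (adjusted p = 0.00889). Another, at 116091107, went from 0.21 to 0.80, a difference of 0.596 (adjusted p = 0.0363). Another, at 116166191, went from 0.63 to -0.0521, a difference of -0.685 (adjusted p = 0.00114). Another, at 116181699, went from -1.29 to -0.15, a difference of 1.14 (adjusted p = 6.36e-07). The interactions at Smad4 73642987, Tgfbr1 47401983, Tgfbr2 116086450 and Tgfbr2 116091107 lost the 1.5-fold call in at least 1 of the alternative fits, and at a fold change of at least 2 the interaction passed at 4 members in all. No cause of these differences was tested.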

How the results depend on the processing

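The named peaks were fitted again with RLE size factors, DESeq2, no count filter, the replicate blocks and each library left out, all at the 1.5-fold threshold. Of 3230 values outside the starts, 3188 kept their side of the DAR threshold, 33 fell below it and 9 rose above it. All 950 values of the start peaks kept their side. A missing adjusted p was counted as kept. Direction was compared only where the peak was a DAR in the full or the alternative fit, and 0 of those values reversed. Leaving out 1 library in turn gave 32 to 39 member DARs for genotype in unstimulated cells (37 in the full fit), 37 to 42 with LPS (40), 99 to 106 for LPS in WT (100), 109 to 117 in AhR-KO (115) and 15 to 21 for the interaction (19). The counts moved most with the fold threshold, by construction. In the order of these comparisons, a fold change of at least 2 left 14, 15, 58, 70 and 4 members and 37, 58, 186, 190 and 20 peaks of the other pathway genes. Without a fold threshold there were 79 members for genotype in unstimulated cells (45 higher and 34 lower in AhR-KO, against 15 and 22), 85 with LPS and 32 for the interaction, and 267, 283 and 108 peaks of the other pathway genes. Windows of 5 kb held 26 genotype DARs with LPS, and windows of 50 kb held 61, with 29 for the interaction. RLE size factors shifted the median over all tested peaks by 0.062 for genotype in unstimulated cells and by -0.048 for the interaction, and by less than that elsewhere. The lowest library total and weak peaks of a few fragments per library limit the smallest values given.

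The replicate numbers of the labels were checked for pairing. Correlations of same-numbered libraries' deviations ran from 0.037 to 0.290 between WT unstimulated and WT with LPS and from 0.00375 to 0.171 between the AhR-KO groups. There 4 and 3 of 6 libraries were closest to their own number, beside 1 or 2 of 6 between groups of different genotype. Whether equal numbers within a genotype mark cultures of 1 animal is not given in the sources used here. The full fit did not use the numbers as pairs. With the replicate block the member DARs numbered 36, 41, 102, 114 and 20. A block within genotype gave 101 for LPS in WT, 114 in AhR-KO and 22 for the interaction.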
